A study of Bos taurus with 2 samples.

Results

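The casein genes CSN1S1, CSN1S2, CSN2 and CSN3 encode the alpha-s1, alpha-s2, beta and kappa caseins of cow's milk. They were 4 of the 17376 genes named on the array and were found by symbol or RefSeq entry among the probes that are not controls, which gave 18 of 43653 probes. All 18 were well above background on both arrays, and all 18 were lower on the mastitis array. RNA came from mammary tissue of adult Chinese Holstein cows with clinical mastitis and was read on 1 array labelled mastitis, which was set against mammary tissue of healthy adult cows of the same breed, read on 1 array labelled normal. The series text gives 3 cows with mastitis and 3 without, all in late lactation, and the sources do not name the cow or cows behind either array. None of the cows had received recombinant bovine somatotropin, the tissue was taken after slaughter, and the paper describes the infection as gram-negative. Antibiotics were given only to the cows with mastitis, and their effect cannot be told apart from that of the disease. With 1 array per condition there is no replicate check, no test and no p-value, and the number of arrays limits the precision.

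Caseins are secreted by the alveolar epithelial cells of the lactating mammary gland and assemble with calcium phosphate into micelles. The alpha-s1, alpha-s2 and beta caseins carry clusters of phosphoserine that bind calcium, whereas kappa casein carries few, is glycosylated and stabilises the micelle at its surface. Their transcription depends on prolactin acting through STAT5 together with glucocorticoid and insulin. Casein kinases are unrelated enzymes that only share the word, and their probes are not counted here.

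Both arrays were single-colour (Cy3) and were scanned together on the same slide, with 45220 spots each. A net signal is the median of a spot's pixels minus the mean of the negative controls (26 scanner units for mastitis and 24 for normal). A probe counted as measured where its spot was found and its net signal exceeded the mean of the 153 negative controls by 2.6 SD, which is called well above background below. That limit was 7.10 net units for mastitis and 8.74 for normal. Before ratios were taken, net signals were divided by the 75th percentile of their array (210 for mastitis and 128 for normal). This step lowers every log2 ratio by 0.71, so a log2 ratio between -0.71 and 0 turns positive without it. The scanner reads up to 65535 units, and a spot was taken as saturated when at least 50% of its pixels lay there. The luminal epithelial markers were measured on both arrays in 10 of 10 genes.

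On the normal array the casein probes stood close to the scanner ceiling. Their gross signals there were between 39.7% and 100% of it, against 0.0916% to 18.2% on the mastitis array. The lowest casein net signal of the normal array (25968) was above the highest of the mastitis array (11925), so the arrays did not overlap over the 18 probes before scaling. On the normal array 2 casein probes were saturated and 4 had at least some saturated pixels, while on the mastitis array 0 had any. A ratio against a saturated spot is a bound, since the brighter signal could not be read further. Before scaling, the largest fold a probe could show was the ceiling over its mastitis signal, which is smaller for probes that stayed bright on the mastitis array. Scaling multiplies every such fold by 1.64.

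**Figure D1:**
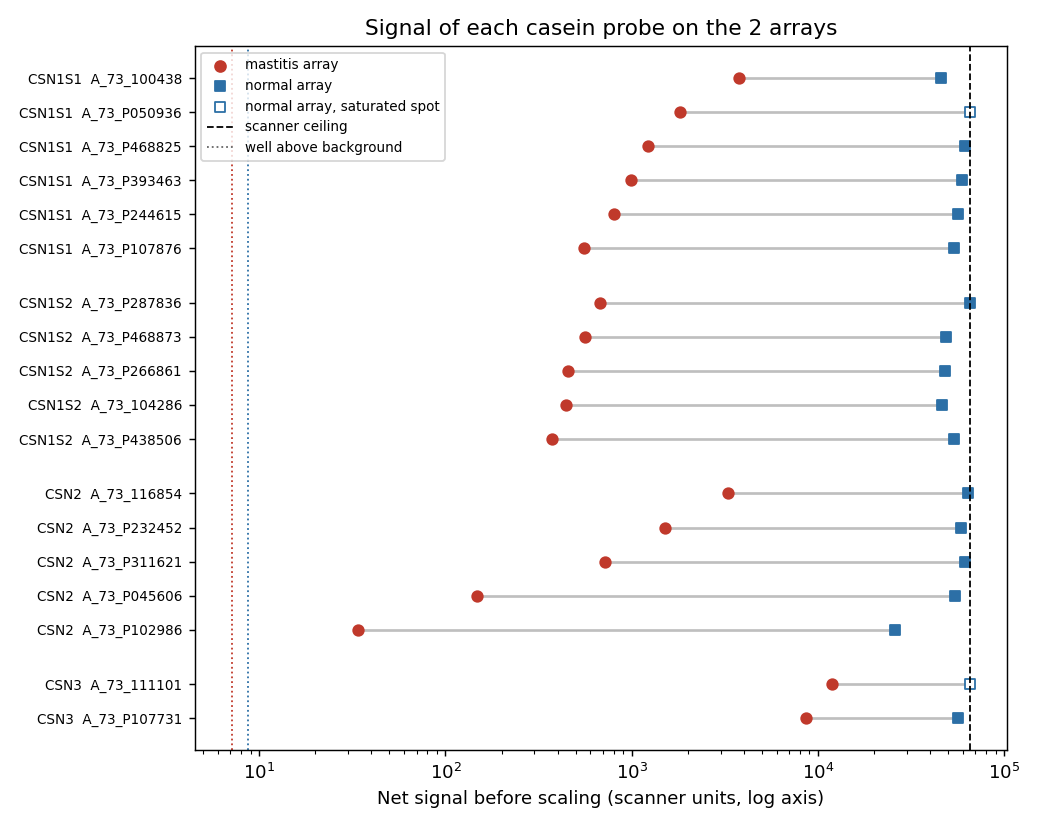
Net signal before scaling (horizontal log axis, scanner units) of each of the 18 casein probes on the mastitis array (red circles) and the normal array (blue squares, open where the spot was saturated). The dashed line is the scanner ceiling and the dotted lines are the limits of well above background. The red circles spread between 34 and 11925, and the blue squares lie between 25968 and 65511.

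CSN2, the gene of beta casein, had the lowest ratio of the family and the widest spread between its probes. Its 5 probes read 34, 148, 721, 1514 and 3296 net signal units on the mastitis array, against 25968, 54222, 61777, 58518 and 63591 on the normal array in the same probe order. The mastitis signals thus spanned 96.9-fold between probes of the same gene and the normal signals 2.45-fold. After scaling, the probes were 1253-fold, 601-fold, 141-fold, 63.4-fold and 31.7-fold lower on the mastitis array in that order. Every probe showed the same direction, and those with the dimmest mastitis signal gave the largest folds. The mean log2 ratio was -7.53 (SD 2.21 over 5 probes), which is 184-fold lower. It was 114-fold lower without the probe A_73_P102986, whose mastitis signal was 4.79 times the background limit, and 286-fold lower without A_73_116854, of whose pixels 20% were saturated on the normal array. The brightest probe taken alone, A_73_116854, gave 31.7-fold. The pixels of that spot varied with a CV of 41.7% on the mastitis array, the highest among the casein spots.

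CSN1S2, the gene of alpha-s2 casein, had nearly the same mean ratio with probes that lay close together. Its 5 probes read 371, 442, 456, 559 and 676 on the mastitis array, against 54075, 46107, 48326, 48591 and 65297 on the normal array in the same probe order. No mastitis value came within 68.2-fold of a normal value before scaling. The mean log2 ratio was -7.45 (SD 0.28 over 5 probes), or 174-fold lower, with single probes between 143-fold and 239-fold lower. The brightest probe on the normal array, A_73_P287836, had 47% of its pixels at the ceiling. The means of CSN2 and CSN1S2 differed by 0.080 on the log2 scale, less than the SD over the probes of either gene.

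CSN1S1, the gene of alpha-s1 casein, was also far lower on the mastitis array in each of its probes. The 6 probes read 552, 806, 990, 1217, 1808 and 3758 on the mastitis array, against 53872, 56391, 59261, 61331, 65511 and 45799 on the normal array in the same probe order. Of these A_73_P050936 was saturated on the normal array (68% of its pixels) and was lower by at least 59.4-fold for mastitis. The other probes were 160-fold, 115-fold, 98.2-fold, 82.7-fold and 20.0-fold lower in order of rising mastitis signal. The mean log2 ratio was -6.23 (SD 1.05 over 6 probes), or 74.96-fold lower, and it contains the bound of the saturated probe. The probe A_73_100438 stood apart from the other 5, being both the brightest on the mastitis array and the dimmest on the normal array. Without it the gene was 97.6-fold lower, and with the brightest probe alone it was 20.0-fold lower. The probe ranges of CSN1S1 overlapped those of CSN1S2 and CSN2.

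CSN3, the gene of kappa casein, was lower on the mastitis array by a much smaller factor than the genes of the calcium-binding caseins. Its 2 probes read 8679 and 11925 on the mastitis array, against 56169 and 65511 on the normal array. The probe with the higher signals, A_73_111101, was saturated on the normal array (72% of its pixels) and was at least 9.01-fold lower, and the other probe was 10.6-fold lower. The mean log2 ratio was -3.29 (SD 0.17 over 2 probes), or 9.78-fold lower, with the bound of the saturated probe included. Its probe range did not overlap that of any of the other 3 casein genes. At the CSN3 mastitis signals, however, the largest fold that either probe could show was below that of any other casein probe. The lack of overlap therefore could not have come out otherwise at these signals, and it does not test how far the folds differ. A_73_P107731 had 0% of its pixels saturated on the normal array, and its 10.6-fold is a reading and not a bound. Over the probes that were not saturated, the CSN3 ratio (1 probe) was 7.39-fold, 16.4-fold and 17.4-fold away from those of CSN1S1, CSN1S2 and CSN2 (5 probes each), with no test. The CSN3 probes stood at 85.7% and 100% of the ceiling on the normal array and had the brightest mastitis signals of the family. The part of the ceiling in the smaller CSN3 fold was not tested.

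A further probe outside the rule, A_73_111600, carries no gene symbol and is described in the files as matching alpha-s1 casein. It read 959 on the mastitis array, against 65095 on the normal array, where 42% of its pixels were at the ceiling, and was 111-fold lower. Its ratio lay inside the range of the CSN1S1 probes.

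Set among all genes, the caseins stood at the low end of the comparison. On the mastitis array all 4 were lower by 8-fold or more, as were 0.738% of the 12473 genes measured on both arrays. By 2-fold or more, 9.12% of these genes were lower and 2.29% were higher. From the lowest ratio upwards, CSN2 stood 5th, CSN1S2 6th, CSN1S1 12th and CSN3 72nd. The saturated probes of CSN1S1 and CSN3 entered at their bounds, and genes measured on only 1 array, LALBA among them, have no rank. The median over the 4 genes was -6.84 on the log2 scale, against -0.15 over all genes. Of the 18 casein probes, 18 were lower and 0 higher by 2-fold or more (8.64% and 2.89% of all 27878 measured probes), 18 were at least 8-fold lower (0.682%) and 12 were at least 64-fold lower (0.122%, or 34 probes in all). Casein probes thus made up 12 of the 34 probes with the steepest ratios.

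Most other probes that were as bright had ratios much nearer to 0. On the normal array 116 probes other than caseins and A_73_111600 were at least as bright as the dimmest casein probe. Of these 4 did not clear the background limit for mastitis, 2 of LALBA and the others of GLYCAM1 and PAEP. The median log2 ratio of the remaining 112 was -0.57, with 12 lower by 2-fold or more, 5 by 8-fold or more, and 0 higher by 2-fold or more. Over all measured probes these shares were 8.64%, 0.682% and 2.89%. Without scaling 5 of the 112 were lower by 2-fold or more, beside 2.65% of all genes. The summed net signal of the 18 casein probes made up 0.160% of that of all gene probes for mastitis and 5.10% for normal, a share 31.8-fold lower that does not depend on scaling. Signal shares are not RNA shares, because probes bind with different strength and the normal signals were near the ceiling.

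**Figure D2:**
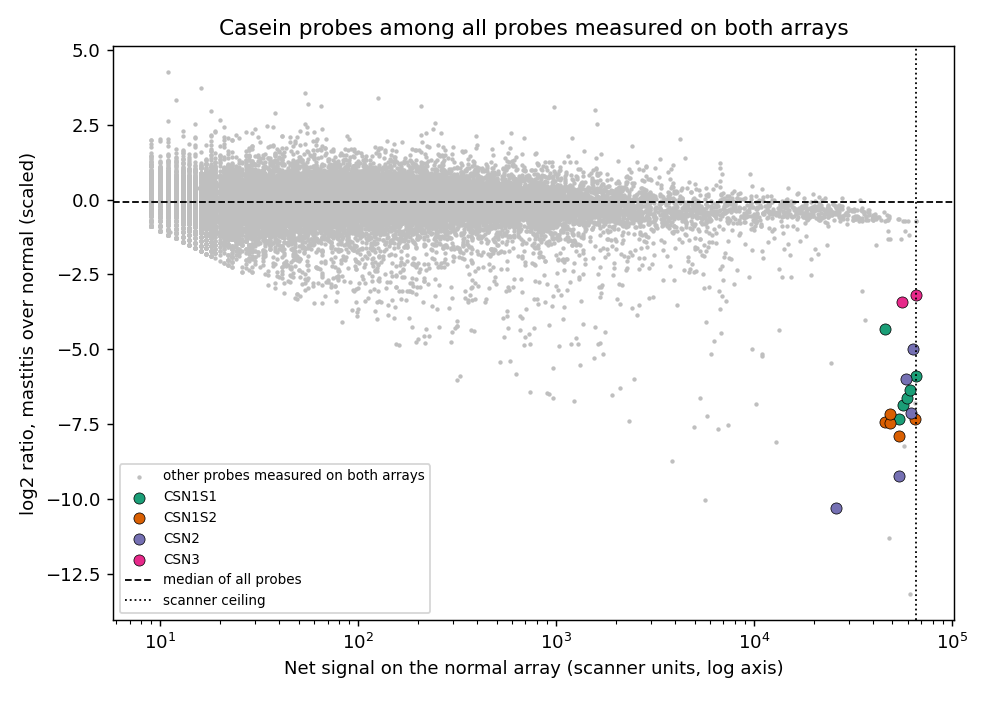
Scaled log2 ratio of the mastitis array over the normal array (vertical axis) against net signal on the normal array (horizontal log axis, scanner units) for all 27878 probes measured on both arrays, with the 18 casein probes coloured by gene. The dashed line marks the all-probe median (-0.099) and the dotted line the scanner ceiling. The casein probes lie at the bright end between -10.29 and -3.17, where most other bright probes sit a little below the dashed line.

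The surface of the slide around the casein spots gave no such difference. The spots within 3 rows and columns of each casein spot had median log2 ratios between -0.26 and 0.14, over 22 to 34 measured probes each. No casein probe was spotted more than once, so spot error was taken from 41 other probes with replicate spots, whose pooled SD of the log2 ratio was 0.16. The pooled SD between different probes of a gene was 0.44 on the log2 scale. The SD of CSN2 and of CSN1S1 exceeded that figure, and those of CSN1S2 and CSN3 did not. These SDs are technical and hold no variation among cows.

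The genes next to the caseins on the chromosome were dim or not measured. In the ARS-UCD2.0 gene table the order runs SULT1E1, CSN1S1, CSN2, HSTN, STATH, CSN1S2, PRR27, ODAM and CSN3 among protein-coding genes. Of 15 listed genes of the casein cluster and its flanks, 9 were on the array and 3 could be compared. Of these 1 was lower and 0 were higher by 2-fold or more, beside 9.12% and 2.29% of all genes. The lower gene was SULT1E1, an oestrogen sulphotransferase gene next to CSN1S1, at 3.39-fold from a single measured probe. That probe was dim and read 15 on the mastitis array, against 31 on the normal array. STATH, the statherin gene between CSN2 and CSN1S2, read 3 on the mastitis array, where it was not well above background, and 18 on the normal array, and was at least 3.69-fold lower. ODAM, which lies between CSN1S2 and CSN3, did not clear the background limit on either array. SULT1B1, a further sulphotransferase gene, had a log2 ratio of -0.58 from 1 probe that read 11 for mastitis and 10 for normal. Farther away JCHAIN, the joining chain of antibodies, had a log2 ratio of 0.21 (SD 0.007, 2 probes).

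Among genes of lactogenic signalling and casein transcription, a few were lower by folds much below those of the caseins. Of 18 measured members of a list of lactogenic signalling and casein transcription, 3 were at least 2-fold lower, 0 were at least 2-fold higher and 15 were within 2-fold, with a median log2 ratio of -0.40 against -0.15 for all genes. Over all genes 9.12% were lower and 2.29% higher by that much. ELF5, an ETS factor of the alveolar lineage, had a median net signal of 1876 on the mastitis array, against 5317 on the normal array, and was 4.65-fold lower. STAT5B and STAT5A, the transcription factors downstream of the prolactin receptor, were 3.50-fold (1 probe) and 2.15-fold lower (2 probes, with an SD of 0.30 on the log2 scale). Without scaling STAT5A was within 2-fold. PRLR, the prolactin receptor itself, had a log2 ratio of -0.71 (SD 0.08, 2 probes), within 2-fold. STAT5A and STAT5B were dim, with a median net signal of 33.5 and 69 on the mastitis array and 48 and 147 on the normal array.

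Of the genes for the modification of caseins and the supply of calcium in the Golgi that could be compared, most were within 2-fold. Of 14 measured members 3 were at least 2-fold lower and 0 were at least 2-fold higher, with a median log2 ratio of -0.35, beside 9.12% and 2.29% of all genes. ATP2B2 and SLC34A2, also on the list, were measured only on the normal array, where they read up to 26 and 10. After scaling they were at least 3.88-fold and 2.05-fold lower for mastitis and are not in these counts. Without scaling 1 was lower (ATP2C2) and 2 were higher (ATP2B1 and SLC20A2), beside 331 and 2524 of all 12473 genes. ATP2C2, a calcium pump of the secretory pathway, was 10.1-fold lower (2 probes, with an SD of 0.22 on the log2 scale), and its median net signal was 155 for mastitis and 936 for normal. FAM20C, the Golgi kinase that phosphorylates caseins, was 2.36-fold lower from 1 probe, and its partner FAM20A had a log2 ratio of -0.81 (SD 0.02, 2 probes). CALU, a calcium-binding protein of the secretory pathway, was 2.27-fold lower, but its 2 probes differed widely (SD of the log2 ratio 2.43).

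Of 11 measured genes of casein-cleaving proteases and their control, 3 were at least 2-fold lower and 0 were at least 2-fold higher, and the median log2 ratio was -0.007, beside 9.12% and 2.29% of all genes. Without scaling the same count of 3 was lower and 4 were higher (PLAT, SERPINE2, CTSB and CTSS). Of all 12473 genes, 331 were lower and 2524 higher by 2-fold or more in that setting. The members at least 2-fold lower were ELANE, the neutrophil elastase gene (11.8-fold), CTSL, a lysosomal protease gene (6.48-fold), and SERPINF2, which encodes an inhibitor of plasmin (3.90-fold), each from a single measured probe. PLAT, the tissue activator of plasminogen, had a log2 ratio of 0.86 from 1 probe. The plasminogen gene PLG did not clear the background limit on either array.

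Of the 5 major whey protein genes, 3 could be compared and all 3 were lower by 2-fold or more, beside 9.12% of all genes. LTF, the lactoferrin gene, was at 3.10-fold (5 probes, with an SD of 0.69 on the log2 scale), and 1 of its probes was saturated on both arrays. Without that probe it was 3.64-fold lower, and without scaling it was 1.89-fold lower over all 5 probes. PAEP and GLYCAM1, which encode beta-lactoglobulin and a milk mucin, had gene ratios below those of all 4 caseins (-10.69 and -11.27 on the log2 scale). PAEP was measured by 2 of its 3 probes (SD 3.50) and GLYCAM1 by 1 of its 2. The PAEP probes gave -13.16, from a mastitis signal of 11 close to the background limit, and -8.21. Single CSN2 probes, down to -10.29, lay between these values. LALBA, the alpha-lactalbumin gene, read up to 57769 on the normal array, fell short of the background limit for mastitis and was at least 11847-fold lower. The serum albumin gene ALB was not well above background on either array.

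Luminal epithelial markers, with the exception of MUC1, did not share the low ratios of the caseins. Of 10 measured markers 1 was at least 2-fold lower, 9 were within 2-fold and 0 were at least 2-fold higher, with a median log2 ratio of 0.22, beside 9.12% lower and 2.29% higher over all genes. Without scaling 1 was lower and 5 were higher by 2-fold or more (KRT7, KRT8, KRT18, CDH1 and CLDN4). In that setting 331 of all 12473 genes were lower and 2524 higher by 2-fold or more. The keratin genes KRT8 and KRT18 had log2 ratios of 0.36 (SD 0.67, 4 probes) and 0.97 (SD 0.13, 3 probes), and the adhesion genes EPCAM and CDH1 0.12 (SD 0.16, 2 probes) and 0.38 (SD 0.22, 3 probes). KRT19 was at -0.40 (SD 0.15, 2 probes) and the claudin genes CLDN3 and CLDN7 at -0.35 (SD 0.10, 2 probes) and -0.70 (1 probe), all 3 turning positive without scaling. The marker at least 2-fold lower was the mucin gene MUC1, which lay 10.6-fold lower (5 probes, with an SD of 1.03 on the log2 scale). Summed over the 25 probes of the list, the scaled signal was 191 on the mastitis array, against 256 on the normal array. That sum is weighted to bright probes and includes MUC1, whose net signal reached 513 for mastitis and 6798 for normal. It is therefore not a measure of the typical marker. In whole tissue, fewer casein-producing cells and less casein RNA per cell cannot be told apart.

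Markers of the other cell types of the gland differed in both directions, and a few by as much as CSN3. Leukocyte markers were at least 2-fold lower in 3 and at least 2-fold higher in 1 of 13 measured genes, and their summed scaled signals over 28 probes were 41.5 on the mastitis array, against 42.6 on the normal array. Without scaling 2 were lower (CSF3R and CXCR1) and 2 were higher (CD68 and CD163). CSF3R was 4.80-fold lower after scaling, from 1 probe that read 26 for mastitis and 76 for normal. CXCR1, a chemokine receptor gene of neutrophils, was 17.0-fold lower from 1 of its 3 probes, which read 8 for mastitis, close to the background limit, and 83 for normal. CD163, a macrophage scavenger receptor gene, was 3.40-fold higher from 1 probe. Summed scaled signals of fibroblast markers were 276 on the mastitis array, against 219 on the normal array, those of myoepithelial markers 86.5 and 84.9, and those of endothelial markers 18.3 and 13.2, in the same order. By 2-fold or more, 1 of 7 fibroblast markers (COL3A1, 2.13-fold), 1 of 7 myoepithelial markers (CNN1, 2.01-fold) and 0 of 5 endothelial markers were lower. In these lists 0 were higher. Without scaling 4, 2 and 3 were higher in the same order, and 0 were lower. Adipocyte markers had 3 measured genes, 2 of them at least 2-fold lower (0 without scaling) and 0 higher, with sums of 62.0 for mastitis and 57.8 for normal. Erythroid markers had 3 measured genes, 2 of them at least 2-fold higher and 0 lower, with sums of 55.8 for mastitis and 46.6 for normal. The haemoglobin gene HBB was 11.6-fold higher from 1 probe that read 1029 for mastitis and 54 for normal. HBA, a haemoglobin gene with a far brighter probe (10391 for mastitis and 5857 for normal), had a log2 ratio of 0.11. Over all genes 9.12% were lower and 2.29% higher by 2-fold or more, and without scaling 331 and 2524 of 12473. Below the background limit on both arrays were TP63 of the myoepithelial, CXCR2 of the leukocyte, ADIPOQ of the adipocyte and SLC4A1 of the erythroid markers. The part of these cell types in the casein difference was not tested.

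**Figure D3:**
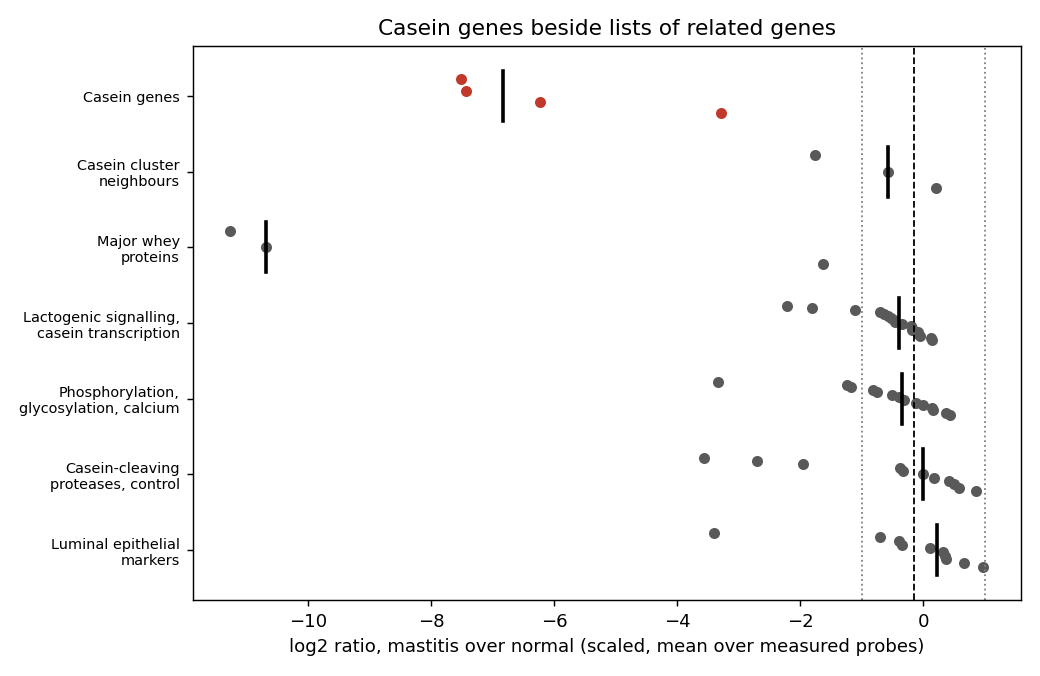
Scaled log2 ratio of the mastitis array over the normal array (horizontal axis) of the 4 casein genes (red) and of the measured genes of 6 related lists (grey). Points are genes spread vertically for legibility, bars are list medians, the dashed line marks the all-gene median (-0.15) and the dotted lines mark 2-fold. The casein bar stands at -6.84, and the bars of all lists but the major whey proteins stand between -0.58 and 0.22.

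The genes whose log2 ratios lay nearest to the casein median of -6.84 were SLC16A13, FABP3, FGFBP1, NEUROD1 and CD70, at distances of 0.10 to 0.55 on the log2 scale over the 2 arrays. FABP3, a fatty acid binding protein of the lactating gland, had a median net signal of 41.5 on the mastitis array, against 4071 on the normal array, and its 4 probes disagreed by an SD of 1.52. FGFBP1, which binds fibroblast growth factors, was measured by 2 probes (SD 0.12), and the other 3 genes rested on 1 probe each.

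The size of the casein folds moved with the processing, and CSN2 and CSN1S2 changed places under some alternatives. Before scaling, the genes CSN1S1, CSN1S2, CSN2 and CSN3 were 45.7-fold, 106-fold, 112-fold and 5.96-fold lower on the mastitis array. Under every alternative that gave values for all 4 genes from the scanner signals CSN3 had the smallest fold. The ceiling capped what the bright CSN3 probes could show, but its part in that smallest fold was not tested. On the normal array A_73_111101 was saturated (72% of its pixels), whereas A_73_P107731 was not and read 10.6-fold lower after scaling. The authors' deposited table of log2 values, read row by row as deposited, showed no such difference, with the 4 genes between -0.083 and 0.28 on the log2 scale. Across probes, the values of that table followed the scanner signal of the neighbouring probe in the sorted list (Spearman correlation across probes 0.9998 for mastitis and 0.99996 for normal) and not that of the probe in the same row (0.10 for mastitis and 0.097 for normal). With its rows moved by 1 the table gave 55.9-fold, 157-fold, 153-fold and 5.72-fold lower for CSN1S1, CSN1S2, CSN2 and CSN3.

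**Figure D4:**
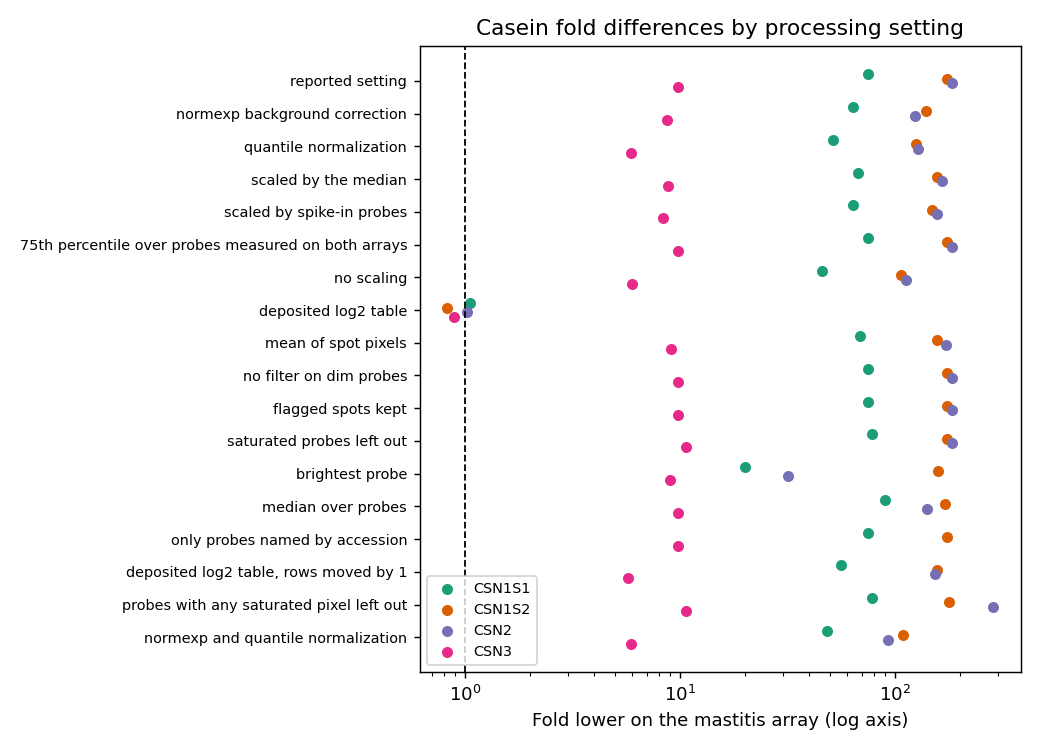
Fold by which each casein gene was lower on the mastitis array (horizontal log axis) under the reported setting and each alternative way of processing (vertical axis). The dashed line marks no difference. The points of CSN3 lie between 5.72 and 10.6, and those of the other genes between 20.0 and 286, except in the deposited table as it stands, where all 4 lie near the dashed line.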

How the data were processed

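Signals were taken from the scanner output of 1 mastitis and 1 normal array. The authors deposited an intensity for each spot from which the negative-control mean had been taken away (B. taurus Oligo Microarray version 2, GenePix Pro 6.1) and no scaling between arrays, together with the percent of saturated pixels and a signal-to-noise score and flag per spot, per the file headers. The methods name another platform and the labels another program, and the spots follow the array named in the headers. The deposited log2 table has no stated method, with a median of 4.34 for mastitis and 4.29 for normal. Its scale and direction were settled against the scanner signals, and its centring stays unknown. It served as an alternative only.

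Spots of a probe were averaged, control spots were left out and saturated spots were kept. Probes were named through RefSeq accessions (28562), symbols (5113) or synonyms (138) of the ARS-UCD2.0 gene table, used for names and gene order only, while 1388 stayed under their deposited name and 8452 were left unnamed. Gene values are log2 ratios (mastitis minus normal) averaged over probes well above background on both arrays, and a probe saturated or not well above background on 1 array gives a bound. Named genes were all casein probes, the 5 genes nearest to the casein median, and from each list at most 4 measured members with the largest absolute log2 ratio, with further members named as markers or neighbours. The members and lists were chosen with earlier results of these data known. The lists come from textbook knowledge. The gene summary was tested on simulated data. Alternatives were 16 fixed with the design and 3 added after the data were seen: a shift of the deposited rows by 1, probes with any saturated pixel left out, and normexp together with quantile normalization. Normexp used an offset of 50, and spike-in scaling the median of 6 probes. Python 3.11.15, numpy 2.4.6, pandas 2.3.3, matplotlib 3.10.9, R 4.3.3 and limma 3.58.1 were used. Sequences of probes, promoters and proteins were not used here.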

Additional observations from a re-analysis of the deposited data

How the results depend on the processing

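Each casein probe that an alternative kept was lower by 2-fold or more on the mastitis array, and the direction of all 4 genes held, except with the deposited table as it stands, in which 0 casein probes were at least 2-fold lower. That table gave log2 ratios of -0.083 for CSN1S1, 0.28 for CSN1S2, -0.03 for CSN2, 0.17 for CSN3 and 0.07 for the median of the 4, and with its rows moved by 1 it gave -2.52 for CSN3. The brightest probe of each gene gave -4.32 for CSN1S1, -4.98 for CSN2 and -4.65 for the median. CSN1S2 moved by more than the SD over its probes with normexp (-7.12), quantile normalization (-6.96), no scaling (-6.73) and normexp with quantile normalization (-6.77). CSN3 did so with normexp (-3.12), quantile normalization (-2.57), spike-in scaling (-3.06), no scaling (-2.58) and normexp with quantile normalization (-2.56). Genes at least 2-fold lower numbered 1137, against 409 with normexp, 757 with quantile normalization, 739 with spike-in scaling, 331 without scaling and 344 with normexp and quantile normalization, and 2689 and 242 at thresholds of 1.5-fold and 4-fold. Genes at least 2-fold higher numbered 286, against 95 with normexp, 463 with quantile normalization, 432 with median scaling, 560 with spike-in scaling, 2524 without scaling, 1536 in the deposited table as it stands, 468 with its rows moved by 1, 116 with normexp and quantile normalization, and 971 and 27 at 1.5-fold and 4-fold. The scaling moved the median of all genes from -0.15 to 0.57 without scaling and 0.085 with spike-in probes. With only probes named by accession CSN2 gave no value, since its accession in the files is not in the gene table used. Leaving out probes with any saturated pixel gave CSN2 286-fold lower from 4 probes. The causes of these shifts were not tested. No paired analysis was possible because each group has 1 array. Signals near the scanner ceiling on the normal array limit the casein folds from above.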
